A study of Mus musculus with 16 samples.

Results

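The genes described here encode 7 proteins that fold, import or degrade proteins inside mitochondria, namely Hspd1, Hspe1, Hspa9, Dnaja3, Trap1, Lonp1 and Clpp. They were chosen by gene symbol from the 23356 genes of each deposited table, and all 7 were present in all 16 libraries. RNA came from NIH3T3 cells, a line of mouse embryonic fibroblasts. All of them carried a stable DD-sfGFP transgene, in which superfolder GFP is joined to a destabilizing domain. Per the study's methods, the transfected cells were sorted as a high-GFP population. One group was left untreated (control, 0 min). The other groups were exposed to bortezomib, a proteasome inhibitor, for 45, 135 or 405 min. Each group held 4 libraries, the only untreated samples were those at 0 min, and the labels give neither a dose nor whether the ligand of the destabilizing domain was in the medium. Nothing states that the replicates were separate cultures, so p-values measure only the spread between these libraries.

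Most mitochondrial proteins are made in the cytosol, threaded unfolded across both membranes and folded in the matrix. The matrix Hsp70, Hspa9, pulls the chain in, and Dnaja3 is one of its J-domain partners in the matrix. The chain is then folded inside the barrel of Hspd1 (Hsp60), closed by a lid of Hspe1 (Hsp10). Trap1 is the Hsp90 of the mitochondrion. Lonp1 is a main AAA+ protease of the matrix and Clpp is the proteolytic part of another. Both proteases remove proteins that fail to fold. Several of these genes are known targets of the mitochondrial unfolded protein response, and the chaperonin genes are also known targets of the heat shock factor Hsf1.

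In the mouse assembly GRCm38.p6 as annotated by RefSeq, Hspd1 lies at chr1:55077833-55088243 on the minus strand and Hspe1 at chr1:55088148-55091317 on the plus strand. They are transcribed away from each other, and their annotated 5′ ends overlap by 96 bases. Lonp1 and Clpp are both on chromosome 17, at 56614297-56626903 and 56990264-56996371. Trap1 and Dnaja3 are both on chromosome 16, at 4039971-4077840 and 4684070-4707695.

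The shared 5′ region of the chaperonin genes held a heat shock element, inside the annotated span of Hspd1 and upstream of the start of Hspe1, which is the inverted array of TTC and GAA units that Hsf1 binds. It is shown because Hspd1 and Hspe1 were the members whose fragments stood apart at 405 min relative to ribosomal protein genes. The test on that scale was added after the data had been seen. With 6 other abundant genes as reference, no member had all 405 min libraries above all others. Whether the site bears on these levels was not tested. The site is at chr1:55088053-55088082, written on the strand of Hspe1, with the 4 consecutive units in capitals.
Hspe1: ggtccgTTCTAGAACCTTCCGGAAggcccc
The capitals covered bases -89 to -72 from the start of Hspe1. Read on the other strand, they covered bases -144 to -127 from one of the 2 starts that RefSeq gives for Hspd1, at 55087932. The window of the other Hspd1 start, at 55088243, did not reach the site. The search used windows of 250 bases before to 50 bases after each start in RefSeq, on both strands. The 3-unit letters were TTCNNGAANNTTC and GAANNTTCNNGAA, and those with 4 units were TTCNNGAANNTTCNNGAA and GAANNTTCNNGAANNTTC, so that a 4-unit match also holds overlapping 3-unit matches. Of all 32851 windows, 198 (0.603%) held a 3-unit match and 8 (0.0244%) held a 4-unit match. The table held windows for 6 of the 7 members (not Hspa9). The windows of Lonp1, Clpp, Trap1 and Dnaja3 had no match to these letters. Neither had those of 5 paralogs outside mitochondria for which the table had an entry (Hspa1b, Hspa5, Hsp90b1, Dnaja1 and Dnaja2). The search took only these exact letters in these windows, so a missing match does not show that a gene lacks a heat shock element. In the study, Hsf1 knockdown weakened the induction of Hspa1b by the unfolded destabilizing domain.

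The libraries were of 2 kinds, and this bears on every value that follows. In 7 libraries, fragments of ribosomal protein genes made up 4.25% to 9.42% of all fragments (45 min replicates 1 and 2, 135 min replicates 1 and 2, 405 min replicates 1, 3 and 4). In the other 9, including all 4 controls, they made up 0.398% to 1.21%. Olfactory and vomeronasal receptor genes, which belong to sensory neurons, took 4.14% to 5.12% of the fragments in these 9 and 0.00531% to 2.61% in the 7. The 7 libraries over 4% held 1385229 to 19930375 fragments and the others 570323 to 1469951. Of 9 fibroblast markers, all had fragments in every library over 4% (summed level 3623 to 18973 CPM, fragments scaled to a common library total), against 8 of 9 in every library at or under 4% (346 to 1697 CPM). The summed levels of 4 epithelial markers were 0 to 67.1 CPM in the libraries over 4% and 94.8 to 196.4 CPM in the others. For 3 immune markers the ranges were 0.317 to 31.0 and 42.8 to 110.5 CPM, and for 2 endothelial markers 0 to 36.8 and 66.3 to 128.8 CPM. The kinds overlapped for 3 neuronal markers (0.435 to 93.1 and 56.8 to 193.1 CPM). They also overlapped for 3 muscle markers (0 to 27.4 and 3.41 to 98.3 CPM). Since no control exceeded 4%, a difference between bortezomib and control over all libraries cannot be told apart from the difference between the kinds of library. In these bulk samples, fewer cells and less RNA per cell cannot be told apart either.

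**Figure D1:**
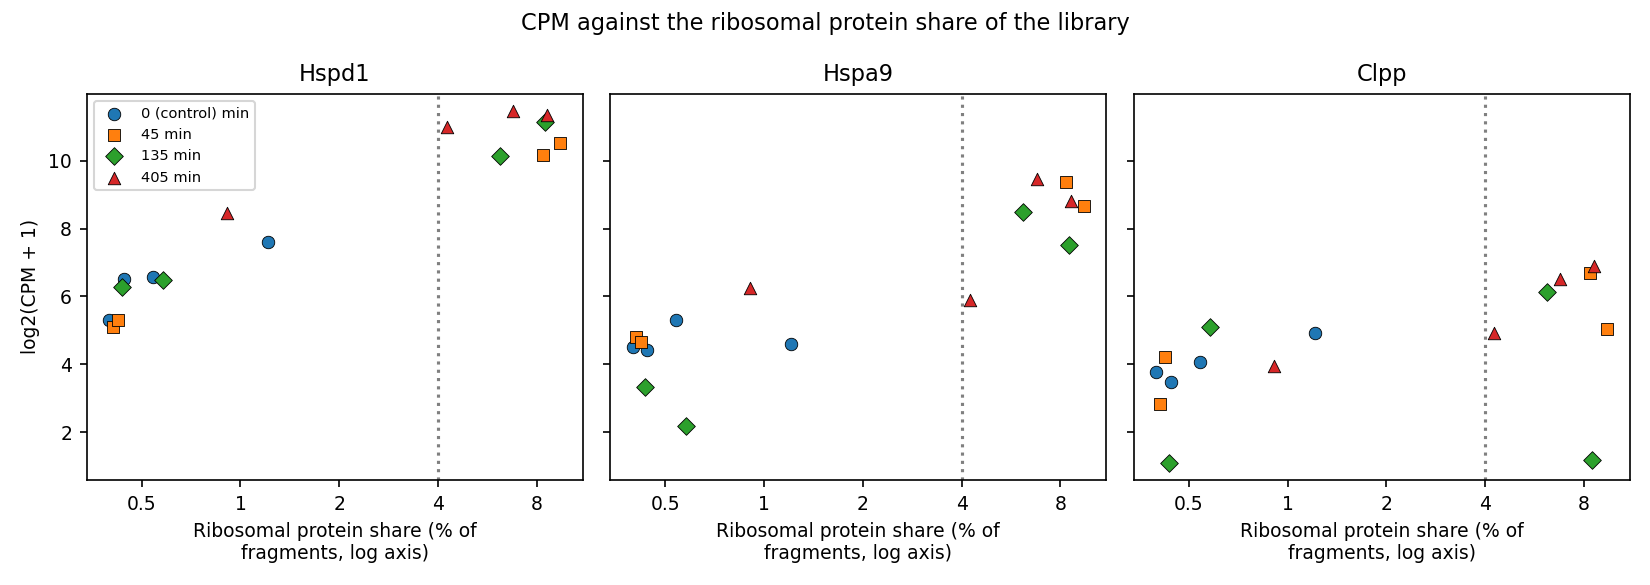
log2(CPM + 1) of Hspd1, Hspa9 and Clpp (vertical axis) in each of the 16 libraries against the share of its fragments from ribosomal protein genes (horizontal log axis), with time after bortezomib as the symbol and a dotted line at 4%. Hspd1 was at 1139 CPM or more in the 7 libraries to the right of the line and at 354.7 CPM or less in the 9 to its left, while Clpp overlapped.

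Relative to ribosomal protein genes, both chaperonin genes had more fragments in every library at 405 min than in any library of another time. On this scale a gene's fragments are divided by those of the ribosomal protein genes of the same library. Hspd1, the barrel, had 17.5, 16.1, 20.6 and 9.58 fragments per 1000 ribosomal protein fragments in control replicates 1 to 4. At 45 min it had 13.9, 15.5, 8.16 and 9.09, and at 135 min 26.6, 18.5, 15.4 and 17.8. At 405 min it had 41.8, 39.1, 47.7 and 30.2, so that each of these 4 libraries was above each of the other 12, including replicate 2, the only 405 min library at or under 4%.

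Hspe1, the lid, showed the same separation. It had 2.92, 3.84, 7.37 and 0 fragments per 1000 ribosomal protein fragments in control, and 8.85, 6.90, 4.0 and 2.65 at 45 min. At 135 min it had 8.67, 13.1, 16.6 and 5.74, and at 405 min 21.7, 17.5, 18.2 and 30.3. The 4 libraries at 405 min were again above the other 12. Of 19357 genes tested, 7 (0.0362%) had all 4 libraries at 405 min above all others on this scale, and 2 of them were Hspd1 and Hspe1. Control replicate 4 held no Hspe1 fragment among 864864, which allows up to 3.47 CPM.

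**Figure D2:**
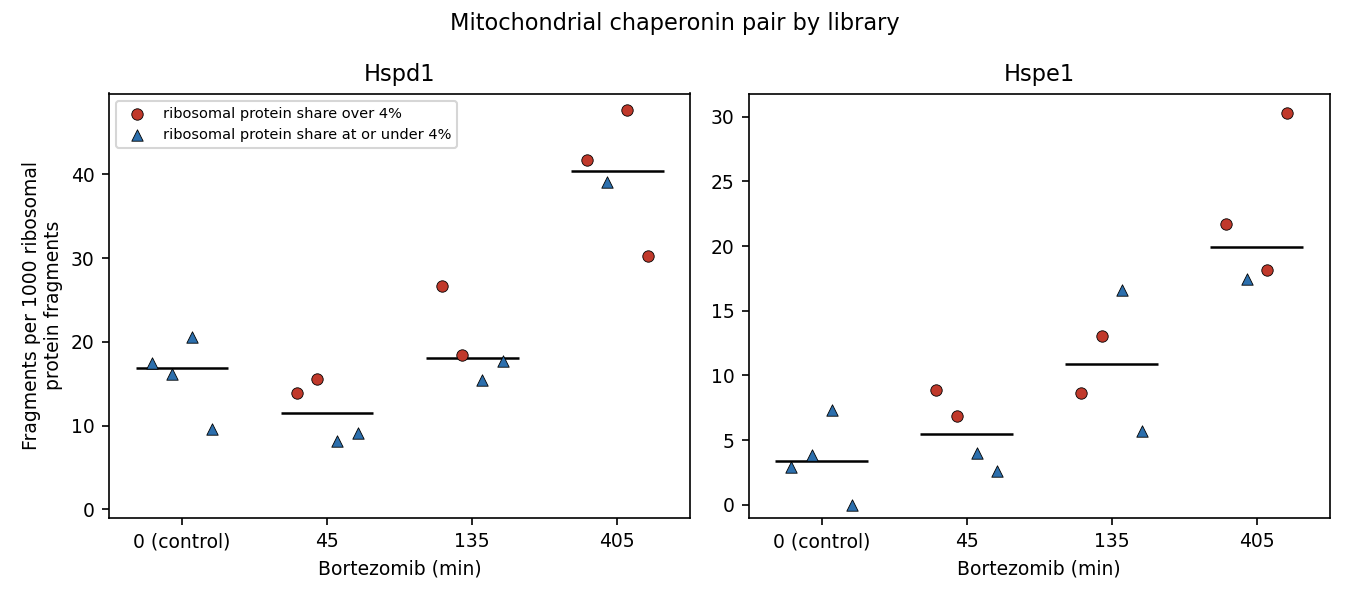
Fragments of Hspd1 (left) and Hspe1 (right) per 1000 ribosomal protein fragments (vertical axis, linear) in each library by time after bortezomib. Circles are libraries with a ribosomal protein share over 4%, triangles the others, and the bar is the median of 4 libraries. The 405 min libraries sit at 30.2 to 47.7 for Hspd1 and 17.5 to 30.3 for Hspe1, above every other library.

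Against control, the difference at 405 min was 1.33 for Hspd1 and 3.23 for Hspe1 on the log2 scale, with 1 fragment added to each count. The group SDs were 0.28 at 405 min and 0.46 in control for Hspd1, and 0.36 and 2.06 for Hspe1 (n = 4 each). Without control replicate 4, which had no Hspe1 fragment, the difference of Hspe1 was 2.24. Both had a 2-sided exact permutation p of 0.02857, the smallest that 4 against 4 libraries can give, and an adjusted p over all 19357 genes of 0.102 for both. Of all genes, 31 (0.16%) had all 4 libraries at 405 min above all 4 controls. At 45 min the differences were -0.45 for Hspd1 and 1.21 for Hspe1, while 135 min gave 0.31 and 2.18, with overlapping groups and exact permutation p-values of 0.05714 or more. No member was above all controls at 45 min (0.031% of genes) or at 135 min (0.0568%), and none was below them (1.6% and 10.5%). With 6 other abundant genes as the reference (Eef1a1, Eef2, Actb, Gapdh, Tuba1b and Tpt1), a choice made after the data had been seen, no member had all 4 libraries at 405 min above the other 12. Hspe1 stayed above all controls, at 61.3 to 150.3 fragments per 1000 of these against 0 to 43.0. Hspd1 covered 113.2 to 394.3 at 405 min and 44.8 to 120.0 in control, which overlap.

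In CPM, Hspd1 measured 94.9, 195.0, 90.9 and 38.2 in control, and 1157, 1462, 33.3 and 38.4 after 45 min. After 135 min it measured 2257, 1139, 89.4 and 77.2, and after 405 min 2829, 354.7, 2028 and 2598. The first 2 libraries at 45 and 135 min and all but replicate 2 at 405 min were those over 4%. Hspe1 measured 15.8, 46.4, 32.5 and 0 CPM in control, and 1471, 158.5, 773.2 and 2601 CPM at 405 min. All 4 libraries at 405 min were above all 4 controls in CPM for 3 members, Hspd1, Hspe1 and Hspa9, as for 595 of 19357 genes (3.07%). None of the 7 members was separated in this way at 45 or 135 min, where 0.801% and 0.842% of genes were.

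**Figure D3:**
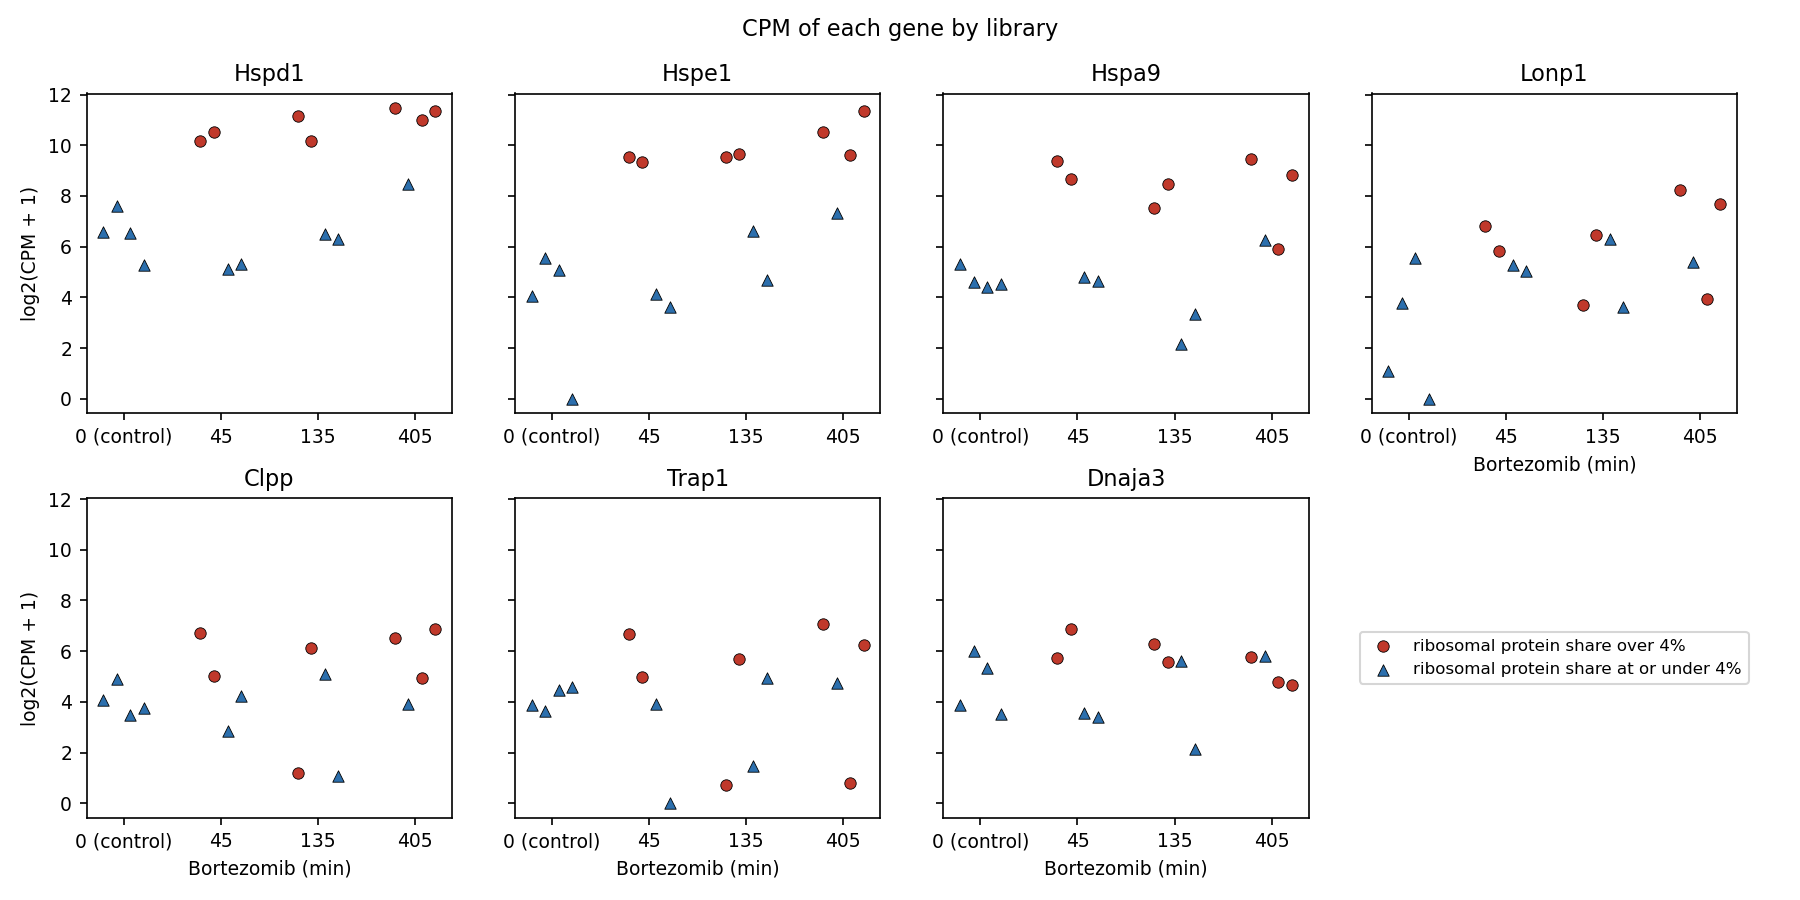
log2(CPM + 1) of each of the 7 genes (1 panel a gene, vertical axis) in the 4 libraries of control and of 45, 135 and 405 min of bortezomib (horizontal axis). Circles are libraries with a ribosomal protein share over 4% and triangles the others. For Hspd1 and Hspe1 the circles lie above the triangles throughout, and for Lonp1, Clpp, Trap1 and Dnaja3 they overlap.

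For Hspa9, the import motor and matrix Hsp70, the times overlapped relative to ribosomal protein genes. It measured 38.4, 23.2, 20.2 and 22.0 CPM in control and 699.4, 75.4, 58.5 and 453.8 CPM at 405 min. Per 1000 ribosomal protein fragments it covered 1.92 to 7.10 in control, 4.27 to 7.95 at 45 min, 0.605 to 5.77 at 135 min and 1.37 to 10.3 at 405 min. The groups overlapped at every time, and the difference at 405 min was 0.16 (exact permutation p = 0.771), or 0.78 without replicate 3 of that time. The lowest library at 405 min was replicate 3, which had 81 Hspa9 fragments beside 2809 of Hspd1.

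Lonp1, the ATP-dependent matrix protease that also degrades oxidized proteins, measured 1.13, 12.8, 46.0 and 0 CPM in control and 303.4, 41.6, 14.4 and 205.2 CPM at 405 min. Control replicates 1 and 4 held 1 and 0 fragments, so the control level rested on few reads, and the groups overlapped. Clpp, the protease barrel that is paired with Clpx, measured 15.8, 29.0, 10.1 and 12.7 CPM in control and 90.4, 14.3, 29.6 and 117.2 CPM at 405 min, which also overlap. Per 1000 ribosomal protein fragments, Clpp was lower in all 4 libraries at 405 min (0.696 to 1.58) than in all 4 controls (2.29 to 3.19). The log2 difference was -1.24 (exact permutation p = 0.02857, adjusted p = 0.102 over all genes), and 3277 of 19357 genes (16.9%) were below all controls in the same way.

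Trap1, the mitochondrial Hsp90, measured 13.6, 11.6, 21.3 and 23.1 CPM in control and 134.2, 26.0, 0.722 and 74.8 CPM at 405 min. Dnaja3, the J-domain partner of Hspa9, measured 13.6, 63.8, 39.3 and 10.4 CPM in control and 53.2, 54.6, 26.7 and 24.2 CPM at 405 min, so that neither group stood above the other. Per 1000 ribosomal protein fragments, the libraries over 4% had lower medians than the others for Lonp1 (1.33 and 4.58), Clpp (1.12 and 2.40), Trap1 (0.811 and 2.86) and Dnaja3 (0.748 and 2.67). The part of the kind of library in their values on this scale was not tested. For Hspa9 the medians were 5.28 and 5.52, for Hspd1 26.6 and 16.1, and for Hspe1 13.1 and 3.999. Both chaperonin genes had the higher median in the libraries over 4%, the kind that held no control. How much of their difference from control on this scale came with the kind of library was not tested.

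Within the libraries over 4%, 2 held few fragments of the scarcer members. In 135 min replicate 1, 4 fragments fell in Clpp, 2 in Trap1 and 38 in Lonp1, beside 7118 in Hspd1. In 405 min replicate 3 the counts were 41, 1 and 20, beside 2809 in Hspd1. The other 5 libraries over 4% each held at least 188 fragments of each of these 3 genes. These are counts, and 405 min replicate 3 was the shallowest library over 4%, with 1385229 fragments. In CPM its Clpp, at 29.6, was near the 31.9 of 45 min replicate 2. Its Trap1 (0.722 CPM) and Lonp1 (14.4 CPM) were below those of the other 5 libraries.

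Per transcript length, in the deposited FPKM values, Hspe1 ranked first and Hspd1 second of the 7 genes in all 7 libraries over 4%. Hspe1 covered 1206 to 5676 FPKM (median 1553), and Hspd1 363.4 to 1482 (median 913.5). The ratio of Hspe1 to Hspd1 in FPKM was 1.46 to 3.83, so the lid was above the barrel in every one. Hspa9 ranked 3 or 4, with a median of 164.1 FPKM and a range of 17.8 to 234.1. Clpp, Lonp1, Trap1 and Dnaja3 had medians of 55.9, 28.3, 21.7 and 17.9 FPKM, and their ranges overlapped with one another.

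When all genes were fitted together, none of the 7 members passed the threshold at any time. edgeR's quasi-likelihood test over all 16 libraries had a common dispersion of 1.76, a coefficient of variation between libraries of a group of 133%. It called 0 of 7 members at an adjusted p under 0.05 in each of the 6 comparisons between times. Against control, the background was 0.0% of 19357 genes for the first 2 times and 0.00517% for 405 min. Between times it was 0.0% for 135 against 45 min, 0.0103% for 405 against 45 min and 0.00517% for 405 against 135 min. At an unadjusted p under 0.05, 4, 2 and 6 members passed at 45, 135 and 405 min against control, beside 6.90%, 3.34% and 9.72% of all genes.

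All 7 log2 fold changes against control were positive at each time, beside 39.7%, 40.6% and 43.1% of all genes. The members' medians by time were 2.77, 2.03 and 4.67, against -0.34, -0.27 and -0.29 for all genes tested. The direction depended on the scaling. Scaled to ribosomal protein fragments in the same test, 3 of 7 were positive at 45 min (median -0.45, all genes -0.59) and 3 of 7 at 135 min (median -0.62, all genes -0.91). Of all genes, 21.9% and 19.7% were positive at these times on that scale. With the log2 ribosomal protein share as a covariate, 3, 2 and 6 of 7 were positive at 45, 135 and 405 min. The shares of all genes were 28.6%, 53.1% and 67.1%. Without that scaling or that covariate, the log2 fold changes at 405 min were 5.44 ± 1.91 (SE) for Hspd1 and 6.97 ± 2.08 for Hspe1. They were 5.07 ± 1.68 for Hspa9 and 4.67 ± 1.45 for Lonp1, each of these genes with an edgeR adjusted p of 0.416. Clpp had 3.20 ± 1.31 (adjusted p = 0.431), Trap1 3.22 ± 1.51 (0.50) and Dnaja3 1.33 ± 1.09 (0.948). Scaled to ribosomal protein fragments, the median of all genes at 405 min moved to -2.44, and 2.52% of genes had a positive log2 fold change at 405 min. On that scale Hspd1 had 1.32 and Hspe1 2.63, while Hspa9 had 0.41, Lonp1 0.014, Clpp -1.12, Trap1 -1.30 and Dnaja3 -1.34. No member passed the threshold there either.

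DESeq2 gave another answer. It gave an adjusted p to 968 genes at 45 and at 135 min and to 2094 at 405 min, and among the members only to Hspd1, Hspe1 and Hspa9. It called all 3 higher at 45 min (adjusted p = 0.0306, 0.0184 and 0.0195) and at 405 min (0.00655, 0.000564 and 0.0182), and Hspd1 and Hspe1 at 135 min (0.0480 for both, with 0.0696 for Hspa9). Of the genes with an adjusted p, it called 38.1%, 10.8% and 18.7% higher at 45, 135 and 405 min.

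**Figure D4:**
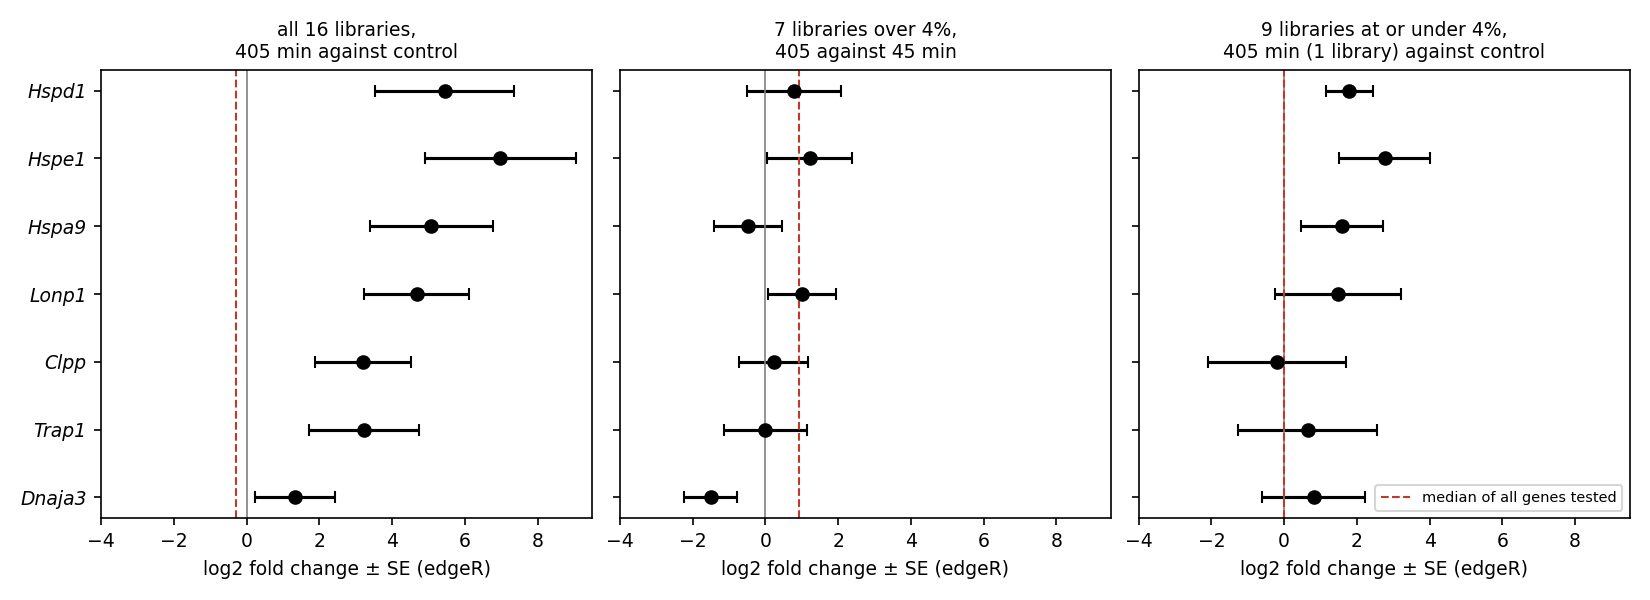
log2 fold change with its SE (horizontal axis, edgeR) of each gene (vertical axis) at 405 min against control over all 16 libraries, at 405 against 45 min in the 7 libraries over 4%, and at 405 min against control in the 9 others, where 405 min is 1 library. The dashed line is the median of all genes tested, at -0.29, 0.94 and 0.01. All 7 genes lie to its right in the first panel, and 2 of 7 in the second (Hspe1 and Lonp1).

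Within the libraries over 4%, which hold every time after bortezomib but no control, no member passed the threshold. These libraries still differed in composition. In 405 min replicate 3 the ribosomal protein share was 4.25% and the receptor share 2.61%, and in 135 min replicate 2 the receptor share was 1.42%. Elsewhere among them the receptor share was 0.00531% to 0.364%. How much this bears on the comparison of times was not tested. In that fit (2, 2 and 3 libraries, 19277 genes, common dispersion 1.91), 0 of 7 were called at 405 against 45 min, as against 0.0311% of genes. None was called at 135 against 45 min (0.0%) or at 405 against 135 min (0.0208%). The log2 fold changes at 405 against 45 min were 0.79 ± 1.30 (SE) for Hspd1, 1.22 ± 1.17 for Hspe1 and 1.01 ± 0.93 for Lonp1. They were 0.23 ± 0.95 for Clpp, -0.00029 ± 1.14 for Trap1 and -0.48 ± 0.94 for Hspa9. Dnaja3 had the lowest, -1.51 ± 0.72 (unadjusted p = 0.0450, edgeR adjusted p = 0.605). The median of all genes was 0.94 and that of the members 0.23, but this order turned with at least 1 count in every library (0.14 and 0.30, 8605 genes). It also turned without 45 min replicate 1 (1.12 and 1.33), without 405 min replicate 3 (0.25 and 0.67) and without 135 min replicate 1 and 405 min replicate 3 together (0.46 and 0.67). Without 135 min replicate 2, which left 1 library at that time, Clpp and Trap1 were called lower at 135 against 45 min and higher at 405 against 135 min. In that fit 0.931% and 1.55% of 19864 genes were called in the same directions. The library left was 135 min replicate 1, with its 4 and 2 fragments of these genes.

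Within the 9 libraries at or under 4%, which include all controls, Hspd1 and Hspe1 had the largest log2 fold changes of the 7 members at 405 min. That time is 1 library here and was assumed to vary like the other groups (21245 genes, common dispersion 0.786). No member was called at 45 min (0.0% of genes), 135 min (0.0377%) or 405 min (0.00941%). At 405 min Hspd1 had a log2 fold change of 1.79 ± 0.64 (SE, unadjusted p = 0.0143) and Hspe1 2.76 ± 1.24 (unadjusted p = 0.0436), both with an edgeR adjusted p of 1.0. Hspa9 had 1.59 ± 1.12, Lonp1 1.49 ± 1.73, Dnaja3 0.81 ± 1.42, Trap1 0.65 ± 1.92 and Clpp -0.19 ± 1.90, beside a median of 0.01 for all genes. In counts, Hspd1 had 273 fragments at 405 min replicate 2 and 33 to 168 in the controls, and Hspe1 122 and 0 to 40. At 45 min (2 libraries) Hspd1 had -1.59 ± 0.60 (unadjusted p = 0.0205, edgeR adjusted p = 1.0).

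Ratios to paralogs that work outside mitochondria were compared for the mitochondrial Hsp70 and Hsp90 and for the J-domain protein Dnaja3. For 3 of 8 pairs, every library at 405 min was below every control. How large a share of all genes fell against the same paralogs was not computed. The log2 ratio of Hspa9 to Hspa8, the constitutive cytosolic Hsp70, was -2.03, -2.78, -2.43 and -2.63 in control, with 1 CPM added to both. After 45 min it was -2.78, -1.56, -1.94 and -2.29, after 135 min -2.91, -3.52, -5.50 and -4.34, and after 405 min -5.10, -2.99, -5.08 and -5.33. All libraries at 135 and 405 min were below all controls, and the mean differed from control by -1.60 and -2.15. At 135 min, replicates 3 and 4 held only 2 and 8 Hspa9 fragments. Replicates 1 and 2 of that time, at -2.91 and -3.52, lay closer to the lowest control, at -2.78. At 405 min, replicate 2, the only library of that time at or under 4%, held 58 Hspa9 fragments. Its ratio of -2.99 was also near that control, while the rest of that time were at -5.08 or lower. Against Hspa1b, the stress-inducible Hsp70, the ratio of Hspa9 was between -1.04 and 0.61 in control and between -7.41 and -2.02 at 405 min, a mean difference of -4.02 (-2.99 without 405 min replicate 3, -4.78 without replicate 1). At 135 min the difference was -2.34, also without overlap. Each of these 4 differences had an exact permutation p of 0.02857, the smallest possible, and an adjusted p of 0.137 over 24 ratio tests, so none passed after adjustment.

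Against Hspa5 (BiP), the Hsp70 of the endoplasmic reticulum, the ratio of Hspa9 overlapped between the groups. The difference at 405 min was -0.36 (means -1.06 ± 0.69 and -0.70 ± 0.68, SD, n = 4 each, exact permutation p = 0.429). Trap1 against Hsp90aa1, the inducible cytosolic Hsp90, was at -13.0 to -6.44 at 405 min and at -5.14 to -1.82 in control, a mean difference of -4.98 (exact permutation p = 0.02857, adjusted p = 0.137). Without 405 min replicate 3, which held 1 Trap1 fragment, it was -3.47, and without replicate 1 or 2 it was -5.67 or -5.65. The groups overlapped for Trap1 against Hsp90ab1 (-4.37) and against Hsp90b1, the Hsp90 of the endoplasmic reticulum (-3.51), and for Dnaja3 against Dnaja1 (-2.84) and Dnaja2 (-3.10). A ratio shows unequal change of 2 genes and not which of them moved. In CPM, Hspa8 was at 113.3 to 164.8 in control and at 604.2 to 23933 at 405 min. Hspa1b was at 19.7 to 48.8 and at 1292 to 10097, and Hsp90aa1 at 84.4 to 443.4 and at 2445 to 19656. In the libraries over 4% alone, with no control, the ratio of Hspa9 went from 45 to 405 min by -3.00 against Hspa8, by -6.62 against Hspa1b and by -1.43 against Hspa5.

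**Figure D5:**
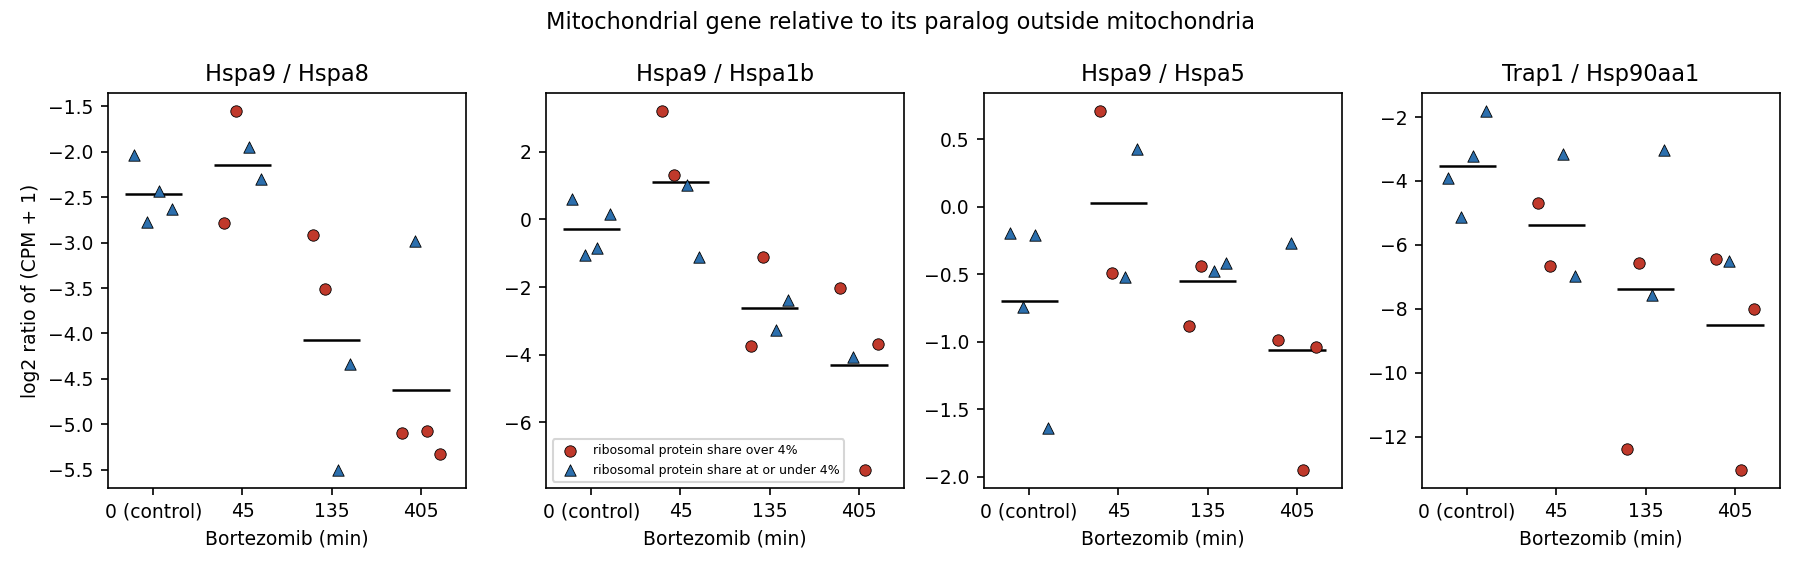
log2 ratio of Hspa9 to Hspa8, Hspa1b and Hspa5 and of Trap1 to Hsp90aa1 (vertical axes, 1 CPM added to both genes) in each library by time after bortezomib, with the group mean as a bar. Circles are libraries with a ribosomal protein share over 4% and triangles the others. At 405 min all 4 libraries are below all 4 controls in every panel but that of Hspa5.

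The balance of barrel to lid did not pass the threshold at any time after adjustment. The log2 ratio of Hspd1 to Hspe1 was 1.45 to 5.29 in control, where the highest value was that of the replicate with no Hspe1 fragment. After 45 min it covered 0.65 to 1.69, after 135 min -0.11 to 1.62 and after 405 min -0.0019 to 1.39. The mean differences from control were -1.70, -1.93 and -1.95 (exact permutation p = 0.0571, 0.0857 and 0.0286, adjusted p = 0.0857 for all 3). Without control replicate 4 the difference at 405 min was -1.13. In the libraries over 4% the ratio moved by -0.13 from 45 to 405 min.

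In edgeR's main fits, 1 of the paralogs gave the only call among the genes compared. In the libraries at or under 4%, Hspa1b had a log2 fold change of 5.35 ± 0.57 at 405 min (edgeR adjusted p = 0.00287), where that time is a single library. The call was lost with the replicate block (4.74, adjusted p = 1.0) and without control replicate 1 or 4 (adjusted p = 0.0980 and 0.0851). Over all 16 libraries 0 of 8 paralogs were called at 405 min, with log2 fold changes of 4.36 to 8.20. Of 40 further genes of mitochondrial quality control (cofactors, membrane and processing proteases, scaffolds, import subunits and stress regulators), 39 were tested over all libraries. None was called in any of the 6 comparisons there or in the 6 within one kind of library. At 405 min against control over all libraries, positive log2 fold changes were seen for 37 of the 39, beside 43.1% of all genes. An unadjusted p under 0.05 was reached by 11, beside 9.72% of all genes. In the libraries at or under 4%, where 405 min is 1 library, 20 of 39 were positive, beside 50.6% of all genes. By list, the medians over all libraries were 1.52 for 8 cofactors, 1.10 for 7 membrane proteases and 3.52 for 4 processing proteases. They were 2.79 for 3 scaffolds, 1.73 for 12 import subunits and 2.20 for 5 stress regulators.

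Within the libraries over 4%, positive log2 fold changes at 405 against 45 min were seen for 14 of the 40, beside 70.4% of all genes. With at least 1 count in every library they were seen for 13 of 33, beside 55.7%, and with ribosomal protein scaling for 25 of 40, beside 85.7%. The highest were Ddit3 (1.84 ± 0.99, SE), which encodes the stress transcription factor Chop, Hsf1 (1.65 ± 1.44) and Stoml2 (0.77 ± 1.33), a scaffold of the inner membrane. The lowest were Cebpb (-1.69 ± 0.70), a bZIP factor, Dnajc19 (-1.69 ± 0.83), a J protein of the import motor, and Immp1l (-1.60 ± 0.95), a subunit of the inner membrane peptidase. Cebpb alone had an unadjusted p under 0.05 (0.0235), and its edgeR adjusted p was 0.605.

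Across all 16 libraries, the genes whose log2(CPM + 1) was most like that of Hspd1 were Fth1, 1110038B12Rik, Eif3a, Ncl and Hsp90aa1, with Pearson's r of 0.980, 0.979, 0.978, 0.978 and 0.975. Hspe1 had r = 0.937 (rank 80 of the genes tested), Hspa9 0.837 and Trap1 0.274. These libraries share the division by ribosomal protein share. Over the 7 libraries over 4%, genes near to it were P4ha2 (0.938), Psph (0.928), Aldh1l2 (0.920) and Trio (0.915). Hspe1 then had r = 0.653 (rank 172), and Hspa9, Clpp, Trap1 and Dnaja3 had values of -0.14 to -0.30. These correlations describe 7 and 16 points and carry no test.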

How the data were processed

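For each library the authors deposited a table of estimated counts (raw fragments per gene), scaled fragments and FPKM. The deposited FPKM values were used only to compare levels between genes. The study's methods name alignment to mm9 and analysis against RefSeq on DNAnexus, whereas the submitters' processing notes name mm10. The tables hold no coordinates, and all positions here are those of RefSeq on GRCm38.p6. Per the labels a NuGEN Encore Complete kit was used on total RNA, while the study's methods also describe poly(A) selection. Strand use in counting was not given in the sources used here, so fragments in the overlap of Hspd1 and Hspe1 cannot be split.

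Between 97.9% and 99.4% of a library's estimated counts were whole (within 1e-06), and all were rounded. In 1 table, 27 symbols turned into dates were restored by row order. No 2 of 120 library pairs were identical. The members, lists and tests were chosen with earlier results of these data known. Named were the members and their 8 paralogs, list genes that were called (or, with none, the 3 highest and 3 lowest at 405 against 45 min over 4%), and the 5 genes nearest to Hspd1, of which 1 is not reported here.

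Genes were tested by quasi-likelihood in edgeR 4.0.16 under R 4.3.3 (TMM, filterByExpr, 1 mean per group; SE from the F statistic), with Benjamini-Hochberg adjustment over all genes of a fit and a threshold of 0.05. Fits were run on all 16 libraries (12 residual degrees of freedom), the 7 over a 4% ribosomal protein share (4) and the other 9 (5). That share used 97 symbols (Rpl or Rps and a digit), 10 of which are S6 kinases. CPM was computed over all fragments. Ratios and fragments per 1000 ribosomal protein fragments were compared by 2-sided exact permutation tests (SciPy 1.17.1). The test per 1000 was added after the data had been seen. Depth differed 34.9 times between libraries, and the upper limit for a count of 0 covers counting error only (3 counts). Alternatives were DESeq2 1.42.0, other filters and scalings, a replicate block, the ribosomal protein share as a covariate, 2 groups alone and each library left out. The scripts were tested on simulated data.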

Additional observations from a re-analysis of the deposited data

Results flagged for a closer look

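Of 28 groups of 4 libraries (7 genes at 4 times), 1 held a library farther from the rest than Dixon's test allows at the 95% level, where chance gives about 1 in 20 groups, or 1.4 of 28. It was Hspd1 at 405 min, where replicate 2 measured 8.475 on the log2(CPM + 1) scale and the other 3 libraries measured 10.99 to 11.47. That replicate is the only one at 405 min with a ribosomal protein share at or under 4%. Per 1000 ribosomal protein fragments it had 39.1 Hspd1 fragments, within the 30.2 to 47.7 of its group.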

How the results depend on the processing

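The count of members called stayed at 0 under 84 of 87 alternatives and 141 of 143 fits without 1 library. DESeq2 called 3 members at 45 min, 2 at 135 min and 3 at 405 min against control. In the libraries over 4%, the count ranged from 0 to 2 with 1 library left out, for 135 against 45 min and for 405 against 135 min, and it reached 2 only without 135 min replicate 2. The replicate numbers pair nothing in the labels. The correlation of deviations between same-numbered libraries was -0.643 to 0.675, over 0.1 in 10 of 24 pairs, and 5 of 16 libraries correlated best with their own number. With the replicate block the count stayed at 0 in all 12 comparisons. No ratio test passed under any alternative run, and no ratio at 405 min changed sign. No ratio to control could be formed in the libraries over 4%.

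Some log2 fold changes changed sign, and the cause was not tested. Over all libraries at 405 min, scaling to ribosomal protein fragments gave -1.12 for Clpp, -1.30 for Trap1 and -1.34 for Dnaja3, and the ribosomal protein share as a covariate gave -0.45 for Dnaja3. At 405 against 45 min in the libraries over 4%, Hspa9 became 0.057 with the replicate block and 0.048 without 135 min replicate 1 and 405 min replicate 3, a choice made after the data had been seen. Trap1, at -0.00029, became 0.11 with at least 1 count in every library, 0.14 with RLE size factors, 0.32 with ribosomal protein scaling, 0.14 with DESeq2, 0.94 with the block and 0.57 without those 2 libraries. With 1 library left out the ranges were -0.84 to 0.13 for Hspa9, -0.53 to 1.46 for Clpp and -0.61 to 1.33 for Trap1. In the libraries at or under 4%, Trap1 became -0.29 with ribosomal protein scaling and Dnaja3 -0.21 with the block, and Clpp ranged from -0.37 to 0.22 with 1 library left out. The filter of at least 1 count in every library removed Hspe1, Lonp1 and Trap1 from the fits that include the controls.

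Per 1000 ribosomal protein fragments, 2 members had all libraries at 405 min above all others and above all controls in each of 16 fits without 1 library. With the 6 other abundant genes as reference these counts were 0 and 1, and the difference of Hspa9 at 405 min was -0.15. On the ribosomal protein scale, where it was 0.16, it ranged from -0.23 to 0.78 with 1 library left out. At 24 to 273 Hspd1 fragments and 0 to 122 Hspe1 fragments in a library at or under 4%, depth limits all within-kind comparisons with control.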
